A study of Homo sapiens with 6 samples.

Results

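The RNA of 10 genes that drive mitosis was followed in NB4 cells left without treatment or exposed to maltonis. The genes were the 4 subunits of the chromosomal passenger complex (BIRC5, AURKB, INCENP and CDCA8), the kinases AURKA, PLK1 and CDK1, the cyclin CCNB1, and CDC20 and UBE2C, which bring the anaphase-promoting complex (APC/C) into action. They are 10 of the 23368 gene symbols counted and were picked by symbol, after the fall of BIRC5 and PLK1 and the rise of UBE2C had been seen in this comparison. Their changes are therefore given as a description and without p-values. Where one of the 10 is said to rise, to fall or to be called, this gives its side of the threshold in the fit across all genes and is not evidence for it.

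In a dividing cell, CDK1 bound to cyclin B1 starts mitosis, and polo-like kinase 1 and the Aurora kinases build the spindle and separate the centrosomes. The passenger complex, in which survivin (the product of BIRC5), borealin (CDCA8) and INCENP place Aurora B on the chromosomes, corrects faulty attachments to the spindle. Once attachments are sound, CDC20 activates the APC/C and UBE2C supplies it with ubiquitin, so that cyclin B1 and securin are degraded and the cell leaves mitosis. Survivin also belongs by its fold to the inhibitor of apoptosis family, and many of these genes are transcribed mainly in G2 and mitosis.

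NB4 is an established human line of acute promyelocytic leukemia, and maltonis is a synthetic compound that carries maltol units. Total RNA was sequenced from 3 not treated libraries and from 3 libraries of cells kept for 24 h in 10 µM maltonis, which the study describes as biological triplicates of 1 line. With 3 libraries per group, the errors measure the spread between these samples only. Values are counts per 1000000 counts of a library (CPM), scaled by TMM. This normalization gives each library a scale factor on the assumption that most genes do not change between libraries.

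The libraries held 18492154 to 38205483 counts, and 3 counts corresponded to 0.0785 to 0.162 CPM. A code in the names of the count files, called the library code below, sets replicate 1 apart from replicates 2 and 3 in both groups. Its meaning is not stated, and the library titles do not hold it. The summed level of 8 promyelocyte and myeloid markers was 13820 to 16310 CPM in not treated and 8637 to 9094 CPM in maltonis libraries, with MPO above every other. MPO (14610 against 7425 CPM on average), CD33 and CEBPE had lower means with maltonis, while PRTN3 (498 against 705 CPM), CTSG (109 against 553 CPM), AZU1, KIT and ELANE had higher means. ELANE, which marks promyelocytes, lay between 0.0603 and 0.166 CPM in the not treated libraries and between 14.5 and 20.97 CPM with maltonis. Of the T cell markers CD3D had 42.9 to 44.8 CPM against 14.9 to 15.8 CPM, while CD3E and CD2 stayed at or under 0.31 CPM. Of the epithelial markers EPCAM had 16.0 to 17.6 against 10.2 to 12.8 CPM and CDH1 none. The sum of 3 B cell markers was at most 3.25 CPM, that of 3 erythroid markers at most 0.0533 CPM and that of 3 fibroblast markers at most 0.826 CPM. The part of these marker differences in the results was not tested.

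BIRC5 and PLK1 fell, UBE2C, CDC20 and AURKA rose, and AURKB, INCENP, CDCA8, CDK1 and CCNB1 did not pass the threshold. All 10 genes passed the filter on low counts, and their lowest count in any library was 226. Calls used edgeR at a false discovery rate (FDR) under 0.01, at which 64.0% of the 13209 genes tested were called, 31.9% higher and 32.1% lower. At 3 higher, 2 lower and 5 not called, the count of the 10 genes is a description only, since this contrast chose them. Their median log2 fold change was 0.12, against 0.01 over all genes tested. BIRC5, PLK1 and UBE2C changed by more than 2.5-fold, as did 20.3% of the genes tested with the FDR criterion. The groups did not overlap for 7 of the 10 genes (4 higher, 3 lower), nor for 76.6% of the genes tested. In whole cultures, fewer or more mitotic cells and less or more of an RNA per cell cannot be told apart. The study reports a G2/M arrest with maltonis. From gene set enrichment of its RNA data it also lists the G2M checkpoint set among the lowered pathways. The part of the arrest in these values was not tested, and the 10 genes were not compared with that set.

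**Figure D1:**
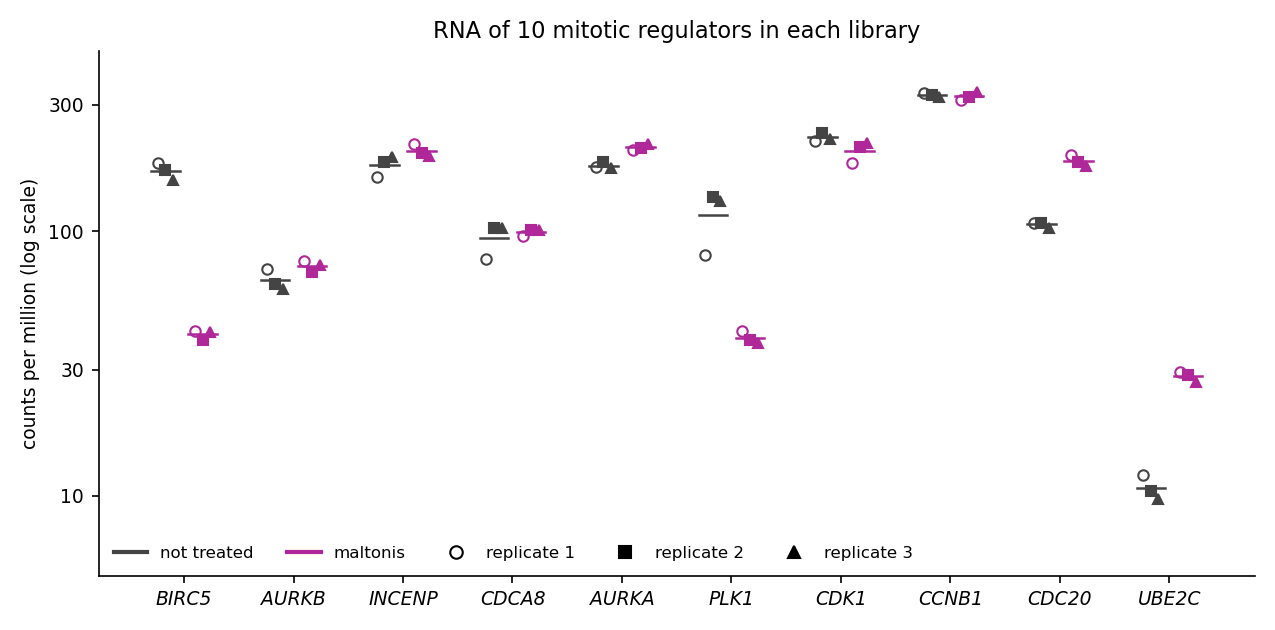
CPM of each gene on a log axis in the 3 not treated (grey) and 3 maltonis (purple) libraries, with symbols for the replicate and a line at each group mean. BIRC5 and PLK1 lie lower and CDC20 and UBE2C higher in all 3 maltonis libraries, and the not treated replicate 1 of PLK1 (81.0 CPM) lies below replicates 2 and 3.

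Promoters of this gene class often hold a cell cycle genes homology region (CHR), bound by the DREAM and MuvB complexes, and CCAAT boxes, bound by NF-Y. RefSeq promoter entries (GRCh38.p14) were matched by symbol for AURKB, INCENP, CDCA8, CDK1, CCNB1, PLK1 and CDC20. AURKB and CDK1 have a pair of starts each, which makes 9 entries for 7 genes. The counts were made on hg19, so these coordinates belong to the sequences alone. The 250 bases before each start were searched on both strands for the CHR, TTTGAA, and for CCAAT. The CHR was found in 6 of the 9 windows, from 5 genes, and CCAAT in all 9, from 7 genes. The windows of paired starts overlap, and both of AURKB hold the same CCAAT box. Of all 35116 promoters, 13.3% held the CHR and 32% held CCAAT. Among the 13322 promoters of genes tested here, these shares were 9.32% and 32.8%. The matches are letters in a window, and whether a factor binds there was not measured.

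The promoter window of CDC20 (chr1:43358731-43358980, plus strand) is shown whole because its gene rose and it holds each motif more than once, with the matches in capitals. The lower case run after the last CCAAT ends at the base before the start.
CDC20: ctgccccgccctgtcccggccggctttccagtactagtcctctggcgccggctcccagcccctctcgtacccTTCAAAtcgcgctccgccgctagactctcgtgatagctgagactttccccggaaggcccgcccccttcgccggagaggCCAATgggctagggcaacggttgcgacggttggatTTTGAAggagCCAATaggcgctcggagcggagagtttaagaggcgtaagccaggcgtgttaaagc

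No window with more than 30 bases in exons of GENCODE 29 is shown whole. Such exons cover all 250 bases of the PLK1 window, 147 at the second start of CDK1, 140 in CCNB1, 98 in CDCA8 and 45 in INCENP. The stretches of PLK1, CDCA8, INCENP and CDK1 below precede a RefSeq start but lie inside the gene as GENCODE 29 annotates it. Up to 30 bases around the CHR nearest the start are set beside each other for PLK1, which fell, CDC20, which rose, and the genes with no call, CDCA8, INCENP and CDK1 (its second start), with the CHR in capitals and all on the plus strand. The positions are chr16:23678848-23678877 for PLK1, chr1:43358904-43358933 for CDC20, chr1:37692481-37692510 for CDCA8, chr11:62123989-62124010 for INCENP and chr10:60778453-60778477 for CDK1.
PLK1: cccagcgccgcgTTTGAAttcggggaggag
CDC20: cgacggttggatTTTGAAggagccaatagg
CDCA8: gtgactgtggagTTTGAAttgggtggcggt
INCENP: tgagccttcagtTTTGAAaatc
CDK1: tagcgcggtgagTTTGAAactgctc

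The same 6 letters thus stand before a RefSeq start of a gene that was lower, a gene that was higher and 3 genes that were not called. In CDCA8 the last A of the CHR is also the first letter of ATTGG, which reads CCAAT on the other strand. CCNB1 and both starts of AURKB hold CCAAT but no TTTGAA on either strand in these 250 bases. No other form of the CHR was searched for, so its absence there is not shown.

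**Figure D2:**
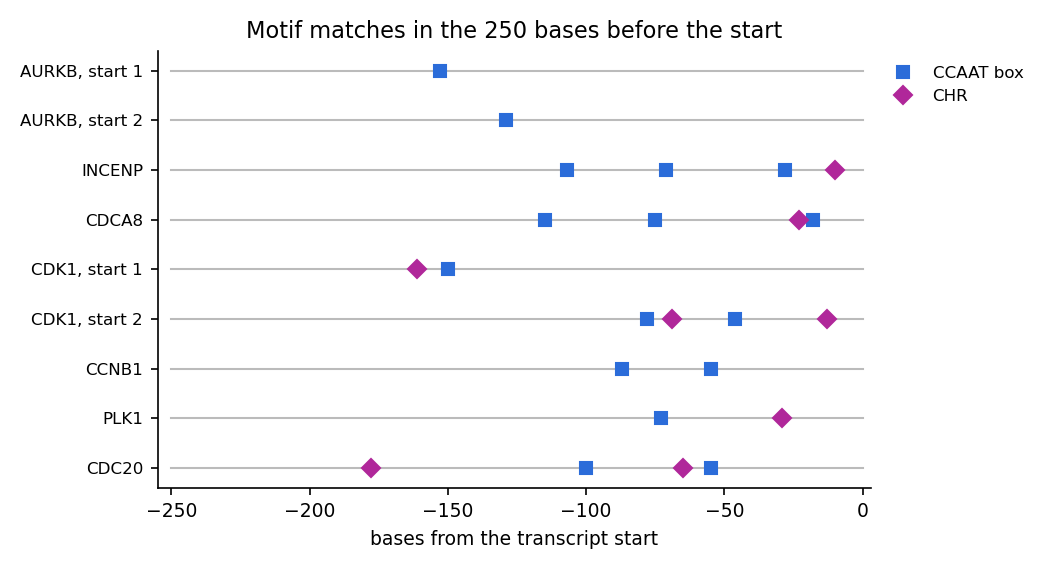
Position of the CHR (purple diamonds) and of CCAAT boxes (blue squares) in the 250 bases before 9 RefSeq transcript starts, given as the first base of each match counted back from the start. The CHR nearest the start lies at -29 in PLK1, -65 in CDC20, -23 in CDCA8, -10 in INCENP and -13 at the second start of CDK1.

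Within the passenger complex, BIRC5 fell and the other 3 subunits were not called. BIRC5 (chr17:78214186-78225636, plus strand, GRCh38) encodes survivin, which docks the complex on phosphorylated histone H3 at the centromere. It had 180.5, 170.1 and 156 CPM in the not treated libraries and 41.9, 38.8 and 41.8 CPM with maltonis. The groups were far apart, and the lowest not treated library lay above every maltonis library. The means were 169 ± 12.1 and 40.8 ± 1.76 CPM (SD, n = 3). On the log2 scale BIRC5 changed by -2.05 (SE 0.07), or 4.14-fold lower.

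AURKB (chr17:8204733-8210600, minus strand) encodes Aurora B, the kinase of the complex. Its level was 72.2, 63.3 and 60.3 CPM without treatment and 76.9, 70.1 and 74.2 CPM with maltonis. These ranges overlap, and the log2 fold change was 0.18 (SE 0.08). INCENP (chr11:62123973-62153163, plus strand), the scaffold that activates Aurora B, had 160, 183 and 190.4 CPM and then 213, 197 and 192 CPM. Its maltonis libraries were all higher, but the closest libraries of the 2 groups differed by less than those within either group. Its log2 fold change was 0.17 (SE 0.08), with 0.41 in replicate 1 alone and 0.06 in replicates 2 and 3 alone. CDCA8 (chr1:37692418-37709719, plus strand), or borealin, had 78.2, 102 and 103 CPM and then 95.7, 101 and 101 CPM. The groups overlap, with not treated replicate 1 the lowest of the 6 libraries, and the log2 fold change was 0.07 (SE 0.10).

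Levels were compared between genes only per length, as CPM per kilobase (RPKM) with all annotated exons of a gene merged. BIRC5 made up 32.2, 28.7 and 26.9% of the summed RPKM of the 4 subunits in the not treated libraries and 8.33, 8.04 and 8.56% with maltonis. It was the largest of the 4 parts in not treated replicates 1 and 2 and the smallest part in every maltonis library. The share of INCENP was 26.2 ± 1.81% and 34.9 ± 1.25%, that of CDCA8 25.2 ± 3.21% and 31.2 ± 1.58%, and that of AURKB 19.3 ± 2.3% and 25.6 ± 0.714%. The sum itself was 152 ± 4.11 RPKM without treatment and 129 ± 2.76 RPKM with maltonis. The ratio of BIRC5 to AURKB in RPKM was 1.52 ± 0.0546 and 0.325 ± 0.0054. Shares add up to a whole, so a lower share of BIRC5 raises the others without any change in them. The sizes of shares and of RPKM ratios also rest on the length used. With the longest transcript as the length, AURKB, INCENP and CDCA8 had 52.05, 44.8 and 38.3 RPKM without treatment. With maltonis they had 58.8, 50.6 and 40.2 RPKM, so AURKB came before INCENP and CDCA8 in both groups. BIRC5 had 62.3 and 15.05 RPKM by that length.

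**Figure D3:**
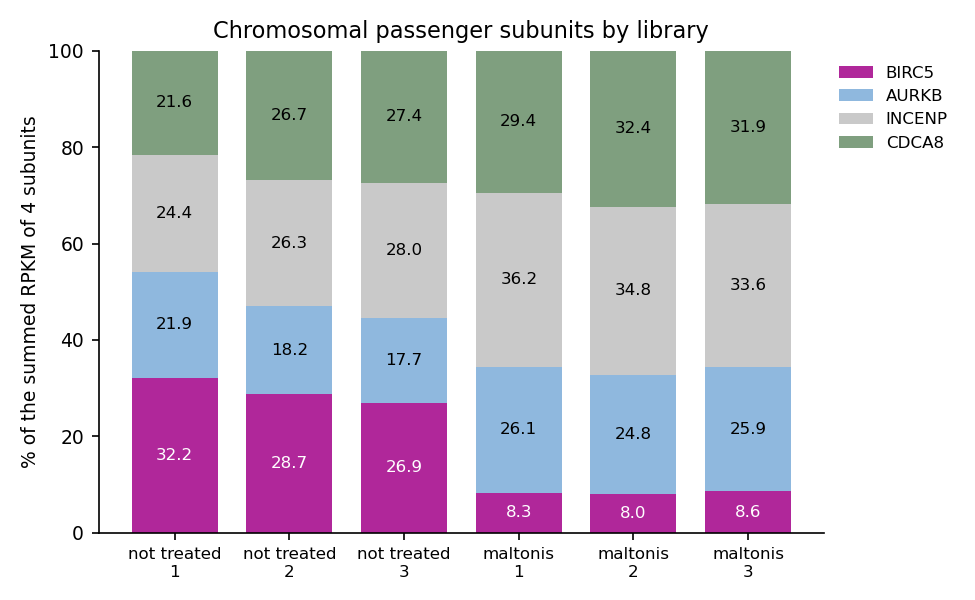
Share of each chromosomal passenger subunit in the summed RPKM (merged exons as the length) of BIRC5, AURKB, INCENP and CDCA8, as stacked bars, 1 bar per library. BIRC5 makes up 26.9 to 32.2% in the 3 not treated libraries and 8.04 to 8.56% in the 3 maltonis libraries.

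Of the kinases that build the spindle, PLK1 fell and AURKA rose by a smaller amount. PLK1 (chr16:23677656-23690367, plus strand) encodes polo-like kinase 1, which acts from mitotic entry to cytokinesis. It had 81.0, 134 and 130.4 CPM without treatment and 41.9, 38.7 and 37.9 CPM with maltonis. All maltonis libraries were lower than all not treated ones, but the not treated replicates differed among themselves, with a coefficient of variation of 25.7%. The means were 115 ± 29.6 and 39.5 ± 2.11 CPM, a log2 fold change of -1.55 (SE 0.17), or 2.92-fold lower.

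The size of the fall of PLK1 rests on which not treated libraries were used. It was -0.95 on the log2 scale for replicate 1 alone, -1.79 for replicates 2 and 3 alone and -1.76 without not treated replicate 1. In log2 CPM, PLK1 in not treated replicate 1 lay 0.71 below the mean of the other two not treated libraries (a difference of -0.71), and 3.35% of the genes tested lay as far or farther below. Of the 111 tested pathway genes listed further on, MYBL2, TACC3, SGOL2, KLHL13 and TPX2 lay more than 0.5 below in that library. This set was looked up after its values had been seen. Over all genes tested, the share at that cut lies between 3.35%, at the value of PLK1, and 9.69%, at that of CDCA8 (-0.39). Nothing is therefore called particular to the pathway genes. MYBL2 had 216 CPM in not treated replicate 1 against 385 and 365 CPM, TACC3 159 against 256 and 293 CPM, and TPX2 217 against 312 and 325 CPM. Whether the change of PLK1 differed between the library codes was not tested.

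AURKA (chr20:56369389-56392337, minus strand) encodes Aurora A, which matures the centrosomes and activates PLK1. It had 175, 182 and 173 CPM and then 202, 206 and 213 CPM. The groups did not overlap, and the log2 fold change was 0.23 (SE 0.05). This call was lost when not treated replicate 2 or 3 or maltonis replicate 2 or 3 was left out, with log2 fold changes down to 0.18. The ratio of PLK1 to AURKA in RPKM was 0.4 ± 0.0997 without treatment and 0.117 ± 0.00908 with maltonis. Parts of both genes are uncertain, because 5.24% of the 50-base words of the AURKA transcripts also occur in transcripts of other genes, pseudogenes of AURKA among them. For PLK1 this was 10.5%, mostly through AC008870.3, which lies on the opposite strand and overlaps 11.6% of its exon bases.

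CDK1 and its cyclin partner were not called in either direction. CDK1 (chr10:60778331-60794852, plus strand), the kinase that starts mitosis, had 220, 235 and 224 CPM without treatment and 180.4, 208 and 215 CPM with maltonis. The maltonis libraries were all lower, but replicates 2 and 3 lay close to the not treated range, and the log2 fold change of -0.17 (SE 0.07) was not called. CCNB1 (chr5:69167010-69178245, plus strand), its cyclin B1 partner, had 332, 325 and 320.5 CPM and then 312, 321 and 335 CPM. The groups overlap from end to end, with a log2 fold change of -0.02 (SE 0.05). The ratio of CCNB1 to CDK1 in RPKM was 2.22 ± 0.098 and 2.47 ± 0.158. Its size rests on the length used. With the longest transcript as the length, CCNB1 had 150 and CDK1 116 RPKM without treatment, and 149 and 103 RPKM with maltonis.

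The 2 genes that bring the APC/C into action rose. CDC20 (chr1:43358955-43363203, plus strand), the activator that hands substrates to the APC/C and the target of the spindle checkpoint, had 107, 108 and 103 CPM without treatment and 194, 182 and 177 CPM with maltonis. The 3 libraries of each group lay close together and the groups far apart. The log2 fold change was 0.80 (SE 0.06), or 1.74-fold. Of its 50-base words 7.68% also occur in transcripts of other genes, among them the pseudogene CDC20P1.

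UBE2C (chr20:45812576-45816957, plus strand) encodes the ubiquitin-conjugating enzyme that starts ubiquitin chains on APC/C substrates. It had 12.04, 10.4 and 9.74 CPM and then 29.3, 28.6 and 26.9 CPM, from 226 to 958 counts. Every maltonis library was more than the double of every not treated one. The log2 fold change was 1.41 (SE 0.10), or 2.63-fold. The ratio of CDC20 to UBE2C in RPKM was 6.28 ± 0.562 and 4.12 ± 0.0803, since UBE2C rose more in proportion.

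**Figure D4:**
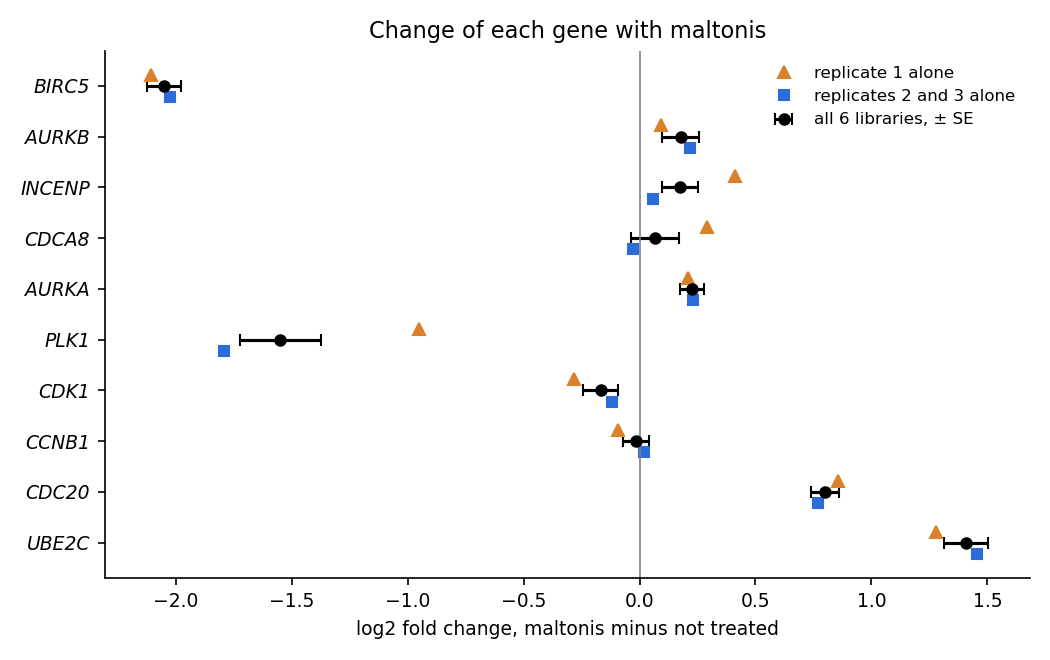
Log2 fold change of each gene (maltonis minus not treated) with all 6 libraries (black, bars are the SE of the fit), in replicate 1 alone (orange) and in replicates 2 and 3 alone (blue). PLK1 spreads from -0.95 to -1.79 between the library codes, while BIRC5 lies near -2.05 and UBE2C between 1.28 and 1.46 in each.

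In order of level per length, the not treated cells held most CCNB1, at 127 ± 2.27 RPKM, then AURKA (60.4), CDK1 (57.5), CDC20 (52.0), BIRC5 (44.3), INCENP (39.7), CDCA8 (38.3), AURKB (29.1), PLK1 (24.2) and least UBE2C, at 8.34 ± 0.919 RPKM. The library ranges overlapped between AURKA and CDK1, and for each neighbour from BIRC5 to PLK1. With maltonis CCNB1 was again first at 126 ± 4.67 RPKM, then CDC20 (90.6), AURKA (70.7), CDK1 (51.2), INCENP (44.9), CDCA8 (40.2), AURKB (32.9), UBE2C (21.97), BIRC5 (10.7) and PLK1 at 8.3 ± 0.443 RPKM. Here only CDK1 and INCENP overlapped. BIRC5 and PLK1 thus took the last places, and UBE2C left the last place. BIRC5 went from percentile 90.6 of the levels of all genes tested that have a length to percentile 63.6, and UBE2C from 56.6 to 81.2. With the longest transcript as the length, 12 of 20 ranks moved, but UBE2C was still last without treatment and BIRC5 and PLK1 last with maltonis.

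The other genes of these pathways were read from 9 lists chosen by function, with 115 genes outside the 10, some of them in more than 1 list. Of the 111 tested, 37 were higher, 36 lower and 38 not called, with a median log2 fold change of -0.01. The shares among all genes tested were 31.9% higher and 32.1% lower. The lists thus held about as many calls in each direction as the transcriptome, and nothing is called particular to them. All adjusted p-values are FDRs of edgeR's quasi-likelihood test over the 13209 genes.

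**Figure D5:**
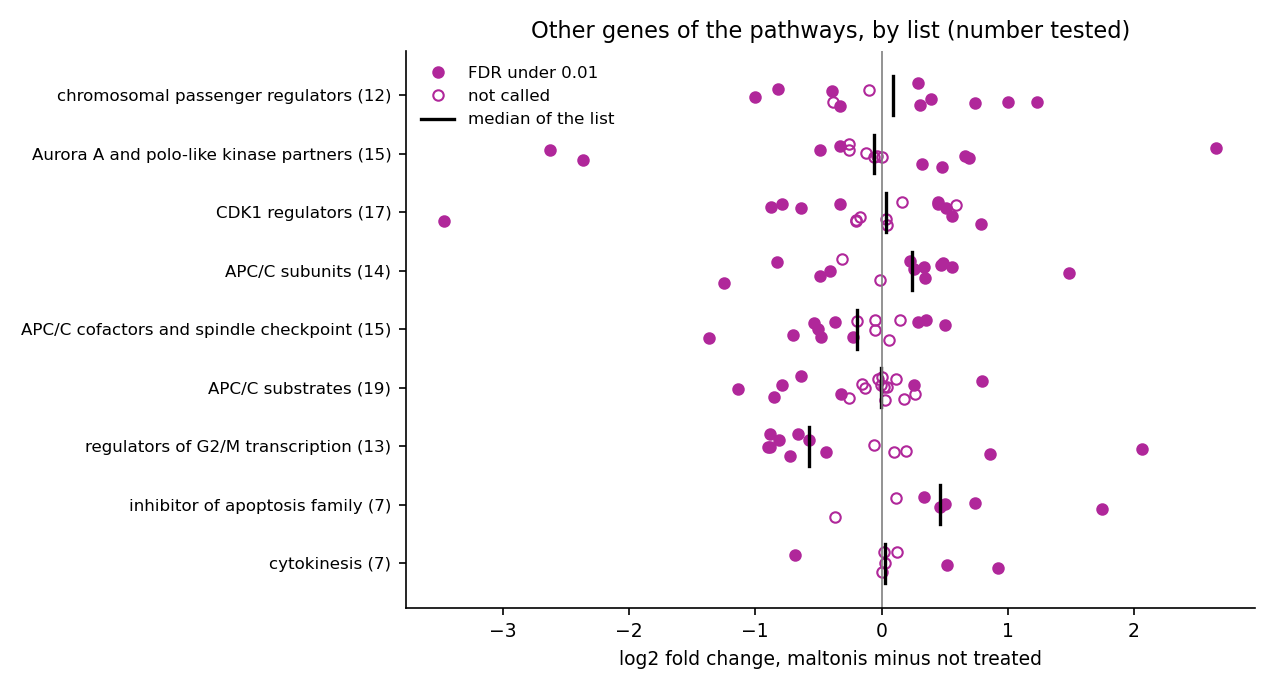
Log2 fold change (maltonis minus not treated) of the genes of 9 pathway lists, with the 10 genes described above left out, the number tested in parentheses, filled points at an FDR under 0.01, open points not called and a black line at each median. The medians run from -0.58 for the regulators of G2/M transcription to 0.47 for the inhibitor of apoptosis family, and points lie on both sides of 0 in every list.

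Of 12 genes that place or license the passenger complex, 6 were higher, 4 lower and 2 not called (median 0.09). Both shugoshins, which guard centromeric cohesion, rose. SGOL1 went from 28.4 ± 1.73 to 57.1 ± 3.09 CPM (log2 fold change 1.00, SE 0.08, adjusted p = 4.11e-06) and SGOL2 from 96.0 ± 25.2 to 225 ± 30.5 CPM (1.23, SE 0.19, adjusted p = 0.000329). GSG2, or haspin, whose mark on histone H3 is the docking site of survivin, rose from 36.4 ± 0.865 to 61.0 ± 4.08 CPM (0.74, adjusted p = 1.76e-05). PPP1CC, a phosphatase that opposes Aurora B, fell from 733 ± 112 to 414 ± 34.2 CPM (-0.82, adjusted p = 0.000197). KLHL21 and KLHL13, adaptors of the CUL3 ubiquitin ligase for Aurora B, changed by -0.39 and -1.0, and KLHL13 was at only 2.74 ± 0.673 CPM without treatment and lost its call in 4 of the 6 fits that left out a library.

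Of 15 partners and relatives of Aurora A and PLK1 that were tested, 5 were higher, 4 lower and 6 not called (median -0.06). NEK6, a kinase of spindle assembly, fell from 44.5 ± 3.66 to 7.2 ± 0.301 CPM (log2 fold change -2.62, SE 0.09, adjusted p = 7.22e-08). Its upstream kinase NEK9 rose from 73.4 ± 10.7 to 119 ± 9.21 CPM (0.70, adjusted p = 0.000387). AJUBA, an activator of Aurora A, fell from 9.28 ± 1.47 to 1.74 ± 0.394 CPM (-2.36, adjusted p = 4.91e-06), and CKAP5, a microtubule polymerase of the spindle, from 456 ± 15.1 to 326 ± 4.8 CPM (-0.49). PLK4, the kinase that duplicates centrioles, rose from 85.8 ± 5.33 to 135 ± 5.1 CPM (0.66, adjusted p = 2.44e-05). PLK2, a stress-responsive relative of PLK1, rose from 0.444 ± 0.13 to 2.66 ± 0.203 CPM (2.65, adjusted p = 6.34e-06), which remained a low level. TPX2, which activates Aurora A on the spindle, had a log2 fold change of 0.01 (SE 0.14), named here for its role.

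Of 17 regulators of CDK1, 5 were higher, 5 lower and 7 not called (median 0.03). MNAT1, the assembly factor of the CDK-activating kinase, fell from 43.3, 40.2 and 40.2 CPM to 4.44, 3.34 and 3.58 CPM (log2 fold change -3.46, SE 0.11, adjusted p = 4.78e-08). All 3 maltonis libraries lay far under the lowest not treated one. CDK7, the kinase of the same complex, rose from 29.8 ± 0.924 to 51.4 ± 3.27 CPM (0.79, adjusted p = 1.39e-05). Of the phosphatases that activate CDK1, CDC25A fell (-0.79, adjusted p = 2.49e-06) and CDC25C rose (0.51, adjusted p = 0.000383). MASTL, the Greatwall kinase that restrains the phosphatase opposing CDK1, rose (0.56), and its substrate ARPP19 fell from 249.6 ± 9.91 to 136 ± 4.97 CPM (-0.87, adjusted p = 2e-06).

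Of 14 subunits of the APC/C, 8 were higher, 4 lower and 2 not called (median 0.24). The scaffold subunit ANAPC1 fell from 135 ± 2.5 to 57.1 ± 3.25 CPM (log2 fold change -1.25, SE 0.06, adjusted p = 4.2e-07), with ANAPC5 (-0.83) and ANAPC7 (-0.49) also lower. CDC26, a small subunit that stabilizes CDC16, rose from 2.67 ± 0.296 to 7.54 ± 0.932 CPM (1.49, adjusted p = 1.63e-05). The cullin subunit ANAPC2 (0.56) and ANAPC13 (0.48) rose as well. The count of 8 dropped to 4 without not treated replicate 2, maltonis replicate 2 or maltonis replicate 3, and to 5 without not treated replicate 3.

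Of 15 cofactors of the APC/C and genes of the spindle checkpoint, 3 were higher, 7 lower and 5 not called (median -0.19). UBE2D1, which like UBE2C starts ubiquitin chains, fell from 25.6 ± 1.27 to 9.93 ± 0.738 CPM (log2 fold change -1.37, SE 0.09, adjusted p = 1.64e-06), opposite to UBE2C. UBE2S, which extends the chains, went from 50.5 ± 5.56 to 34.9 ± 7.52 CPM (-0.54, adjusted p = 0.00972) and lost its call under 2 other scalings and in 4 of the 6 fits that left out a library. TRIP13, which takes apart the checkpoint complex, fell from 146 ± 4.99 to 89.9 ± 1.83 CPM (-0.70, adjusted p = 5.72e-06). The checkpoint kinases TTK (0.35, adjusted p = 0.000503) and BUB1 (0.29, adjusted p = 0.000805) and the checkpoint protein MAD1L1 (0.50, adjusted p = 0.00023) rose. The 7 lower calls became 3 when only total counts were used as the scale, 4 with the upper quartile and 4 without not treated replicate 2.

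Of 19 substrates of the APC/C, 2 were higher, 5 lower and 12 not called (median -0.01). HMMR, a spindle protein, rose from 113 ± 5.17 to 197 ± 6.01 CPM (log2 fold change 0.80, adjusted p = 3.56e-06) and NUSAP1, which bundles spindle microtubules, from 224 ± 11.01 to 269 ± 5.91 CPM (0.26, adjusted p = 0.00302). The call of NUSAP1 was lost without not treated replicate 2 or 3 or maltonis replicate 2 or 3. SKP2, a subunit of another ubiquitin ligase, fell from 165 ± 3.43 to 74.97 ± 3.47 CPM (-1.14, adjusted p = 4.73e-07). ESPL1, or separase, the protease that cuts cohesin at anaphase, fell from 109 ± 5.19 to 60.4 ± 3.14 CPM (-0.85, adjusted p = 5.11e-06), and CDC25A is also in this list.

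Of 13 regulators of G2/M transcription, 2 were higher, 8 lower and 3 not called (median -0.58). The pocket proteins RBL1 (from 73.6 ± 2.17 to 40.1 ± 1.12 CPM, log2 fold change -0.88, adjusted p = 2.53e-06) and RBL2 (from 138 ± 11.4 to 74.7 ± 0.397 CPM, -0.88, adjusted p = 5.62e-06) fell. MYBL2, which joins MuvB in S phase, fell from 322 ± 92.3 to 172 ± 16.0 CPM (-0.90, adjusted p = 0.00252), with the low not treated replicate 1 given above and its call lost without not treated replicate 2 or any 1 maltonis library. The MuvB subunits LIN37 (from 4.5 ± 0.394 to 18.8 ± 2.3 CPM, 2.06, adjusted p = 1.06e-06) and LIN52 (from 15.6 ± 1.68 to 28.1 ± 0.821 CPM, 0.86, adjusted p = 3.24e-05) rose. FOXM1, which activates the G2/M genes with MuvB and is named here for its role, had a log2 fold change of 0.19 (SE 0.10, adjusted p = 0.105). Of the 8 lower calls, 5 were left without maltonis replicate 2.

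Of 10 relatives of survivin and their antagonists, 7 were tested, of which 5 were higher, none lower and 2 not called (median 0.47). At an unadjusted p under 0.05 the count of lower genes was 1, and with DESeq2 it was 0. BIRC2, or cIAP1, rose from 40.0 ± 2.66 to 66.5 ± 2.52 CPM (log2 fold change 0.74, SE 0.07, adjusted p = 2.01e-05). The other genes that rose most, HTRA2 and DIABLO, encode mitochondrial proteins that counter the inhibitors. HTRA2 had 60.4, 59.3 and 52.5 CPM and then 200.2, 191 and 187 CPM (1.75, SE 0.07, adjusted p = 1.48e-07), with no overlap. DIABLO rose from 133 ± 6.0 to 188 ± 4.67 CPM (0.50, adjusted p = 5.74e-05). Whether the change of BIRC5 differed from that of each relative was not tested.

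Of 7 genes of cytokinesis, 2 were higher, 1 lower and 4 not called (median 0.03). CEP55, which organizes abscission at the midbody, rose from 135 ± 5.58 to 255 ± 8.41 CPM (log2 fold change 0.92, SE 0.06, adjusted p = 1.43e-06). CIT, the citron kinase, rose from 101 ± 17.3 to 144 ± 7.68 CPM (0.52, adjusted p = 0.00286), but lost its call without not treated replicate 2 or any 1 maltonis library. RHOA, the GTPase of the contractile ring, fell from 625 ± 25.9 to 388 ± 6.42 CPM (-0.69, adjusted p = 6.51e-06).

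Several of these genes share exon bases with a neighbour, which matters because the strand setting of the counting is not given in the sources used here. HTRA2 overlaps LOXL3 over 20.8% and AUP1 over 16.1% of its exon bases on the opposite strand. LIN37 overlaps an antisense gene over 41.8% and a gene on its own strand over 26.7%, and NUSAP1 a gene on its own strand over 62.2%. DIABLO shares 48.4% of the exon bases of its shorter annotated entry, and 16.8% of its longer entry, with a gene on its own strand. CDC26 overlaps PRPF4 over 17.7% on the opposite strand, and PRPF4 had 2285 to 5201 counts, far more than CDC26. Without strand, reads in the shared bases of HTRA2, LIN37 and CDC26 cannot be told apart from those of their neighbours. For NUSAP1, DIABLO and part of LIN37 the strand would not separate them either. AUP1 had 5729, 10809 and 9062 counts without treatment and 1043, 1707 and 1431 with maltonis. LOXL3 had 211, 389 and 338 and then 272, 440 and 340 counts. The part of these neighbours in the change of HTRA2 was not tested.

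Genes whose levels followed BIRC5, PLK1 or UBE2C most closely over the 6 libraries were found by the root mean square difference of their centered log2 CPM, among all genes tested. Nearest to BIRC5 were MRPL9, a mitochondrial ribosomal protein (0.0323), SLC38A5, an amino acid transporter (0.0424), and POLR3G, a subunit of RNA polymerase III (0.0434). MRPL9 had 112, 99.5 and 92.0 CPM and then 25.5, 23.0 and 24.5 CPM. Nearest to UBE2C were TCF19 (0.0317), DALRD3 (0.0341) and TRNAU1AP (0.0354), of which TCF19 had 86.6, 79.4 and 73.5 CPM and then 226, 215 and 200.4 CPM. PLK1 had no neighbour as close, with EFR3B (0.0829, at 10 to 56 counts), ENO2, an enolase (0.115), and TMEM67 (0.122). The 9 genes come from the same 6 libraries and the likeness is a description.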

How the data were processed

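RNA of NB4 cells was prepared with a stranded total RNA kit, and the deposited values are raw HTSeq counts, in whole numbers per gene symbol, with a table for each library. The submitters' processing notes name TopHat, Bowtie2, HTSeq and the build hg19. Their versions, the annotation and the strand setting are not given in the sources used here. The 3 + 3 libraries were grouped by the labels and none was left out. No 2 replicates agreed within sampling noise (chi-square per degree of freedom 4.33 to 35.0). Library totals ran from 18492154 to 38205483 counts, and floors of 3 counts cover counting error only.

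Counts were fitted in R 4.3.3 with edgeR 4.0.16 (TMM, filterByExpr, quasi-likelihood test, no covariates), with Benjamini-Hochberg adjustment over 13209 genes and an FDR under 0.01. The test was first run on simulated data. CPM use TMM-scaled library sizes. RPKM use merged exons of GENCODE 29, found for 21642 of 23368 symbols. Gene positions are from GENCODE 29 (GRCh38), promoters from RefSeq (GRCh38.p14). No promoter entry was used for BIRC5, AURKA and UBE2C. Alternatives were DESeq2 1.42.0, other scalings, no filter beyond 1 count, a change beyond 2.5-fold, a replicate block, each library left out, replicate 1 alone, replicates 2 and 3 alone, and the longest transcript as length. Figures were drawn with matplotlib 3.10.9 under Python 3.11.15.

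The 10 genes and the 9 lists were chosen with earlier results of these data known. From each list, the up to 3 highest and 3 lowest log2 fold changes among called genes are named. TPX2, FOXM1, TACC3 and the genes of the marker check fall outside this rule, and TPX2, FOXM1 and TACC3 were chosen after their values were seen.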

Additional observations from a re-analysis of the deposited data

How the results depend on the processing

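Of the 10 genes, all but CDCA8 and CCNB1 kept the sign of their log2 fold change in all 14 alternatives. CDCA8 kept it in 12 and CCNB1 in 11, the latter at 0.10 with total counts as the scale and -0.09 in replicate 1 alone. Total counts and the upper quartile shifted the median of all genes from 0.0139 to 0.133 and 0.101, and with total counts INCENP was called as well. AURKB was called without not treated replicate 1 and in replicates 2 and 3 alone. With a change beyond 2.5-fold required, the calls over all genes dropped from 4213 to 1316 higher and from 4239 to 1369 lower, since the criterion is stricter. In the other 13 alternatives with a test these counts stayed within 1.5 times, as did those of the pathway genes, which without 1 library ran from 30 to 39 higher and from 27 to 37 lower. Of 585 values of the 45 named pathway genes, 563 kept direction and call, 22 lost the call and 0 reversed. The genes that lost it are KLHL13, UBE2S, NUSAP1, MYBL2 and CIT, and fewer samples were fitted in most of these cases. Replicate numbers are shared by the groups, but the deviations of same-numbered libraries correlated at 0.301, 0.085 and 0.161, so they were not taken to pair the samples. Replicate 1 of either group correlated at -0.162 to -0.232 with replicates 2 and 3 of the other. Replicates 2 and 3 of unlike number correlated across the groups at 0.123 and 0.139. The deviations of a group sum to 0 for each gene, so these signs are largely tied to the positive value of replicate 1. They are no further evidence on the split by library code, which both groups share. The cause of that split was not tested. With a replicate block, 4602 genes were higher and 4620 lower over all genes, and 39 and 39 pathway genes. Replicate 1 alone has no test. The cause of the other shifts was not tested.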
